A study of Saccharomyces cerevisiae with 4 samples.

Results

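The genes described here encode the proteins of the large subunit of the cytosolic ribosome of *Saccharomyces cerevisiae*. They were chosen by name, as every gene of the deposited gene tables called RPL with a number and, where there is one, a copy letter, together with RPP0, RPP1A, RPP1B, RPP2A and RPP2B, which encode the acidic stalk proteins. This gave 81 of the 5816 genes. RNA was sequenced from wild-type cells and from cells in which CHD1, the gene of a chromatin-remodelling ATPase, was deleted, with 2 libraries of each genotype. Both strains were in the BY4741 background, a haploid laboratory strain of mating type a that lacks several biosynthetic genes, and both grew in YPD, a rich glucose medium, at 30 °C to mid-log phase, with an optical density between 0.6 and 0.8. No treatment was given to either group, and how many deletion clones were used is not stated in the labels. The comparison asked which of these transcripts differ in cells that lack Chd1.

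Large-subunit proteins are built around the ribosomal RNA in the nucleolus, and the finished subunit holds the peptidyl transferase centre, the tunnel through which the nascent chain leaves, and the stalk that recruits translation factors. Growing yeast devotes much of its transcription to these genes, most of which are bound upstream by Rap1 with Fhl1 and Ifh1. Most of them exist as A and B copies left by an ancient genome duplication, and an unusually large share of them carries an intron near the start codon. Chd1 spaces nucleosomes over transcribed genes.

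The strain labels were checked on the deleted gene. CHD1 (YER164W) had 211 and 396 reads in wild-type cells and 7 and 3 in the cells labelled as its deletion. Among the strain markers, STE2, the a-cell pheromone receptor gene, had between 1083 and 2588 reads per library and the alpha-factor gene MF(ALPHA)1 had at most 1. The other alpha-cell markers looked at, MF(ALPHA)2 and STE3, had at most 13 and 14. The a-factor gene MFA2 was at 79.9 and 78.4 CPM (counts per 1e6 TMM-scaled reads) in wild-type cells, against 124 and 94.5 CPM without CHD1 (log2 fold change 0.48 ± 0.13, adjusted p = 0.0481). MET17 had 0 reads throughout, LEU2 at most 2, and URA3, which the background should lack, between 29 and 82. HIS3, also looked at as a marker of the background, had between 69 and 104. Gene reads per library ranged from 2145684 to 4117998. The labels do not describe the replicates as separate cultures, so the p-values given here measure the spread between these libraries, which may be technical. In bulk RNA, fewer cells with a transcript and less of it per cell cannot be told apart.

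In wild-type cells the members took 12.7 and 13.4% of all gene reads, and their levels per length spread over 189-fold. These levels are read counts per kilobase of gene length without introns and per 1e6 TMM-scaled reads. Comparing genes on this scale takes the reads as even along each gene. The median member stood at 1734 in wild type and at 1524 in the deletion. RPL14A was highest, at 17276 and 27548 in wild-type cells and 16183 and 18078 without CHD1, and its paralog RPL14B followed at 15198 and 24316 in wild-type cells and 14042 and 15815 without CHD1. In neither did the libraries separate by genotype, and wild-type replicate 2 stood apart above the other 3. Also among the highest, RPL3, whose protein lies against the peptidyl transferase centre, had a mean of 6826 ± 484 in wild type, and RPL1A, which encodes the protein of the mobile L1 stalk, one of 5727 ± 531 (SD, n = 2).

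At the other end of the range stood RPL15B, with levels per length of 121 and 116 in wild-type cells and 127 and 136 without CHD1. RPL31B, whose protein lies by the tunnel exit, was at 191 and 159 in wild-type cells and 211 and 219 without CHD1. RPL22B was at 339.5 and 301 in wild-type cells and 202 and 228 without CHD1. All of these low members had a paralog at a higher level. RPL29, which has no paralog, averaged 392 ± 64.2 and RPL13A 547 ± 110.4 in wild type (SD, n = 2). The member with the fewest reads in any library had 172.

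The RPL14 genes had uneven reads along their length. The deposited intron tables also list the coding exons of intron-containing genes. Exon 2 of RPL14A (288 bases) held 17684 and 39097 reads in wild-type cells and 34917 and 24309 without CHD1. Its exon 1 (129 bases) held 362, 534, 929 and 518 in the same order. Exon 2 of RPL14B held nearly as many, 17152, 37733, 33616 and 23576, and its exon 1 fewer, 129, 216, 231 and 190. The copies share 42.1% of their 50-base coding windows. How reads that match both copies were treated is not given in the sources used here, so their counts may not be independent. The ratio of reads per base in the last exon to those in the first had a wild-type mean of 27.3 for RPL14A and 68.9 for RPL14B. Both exons are part of the mature RNA, and the level of these genes therefore differed by exon. The top rank of RPL14A, and the 189-fold spread from it down to RPL15B, thus rest mostly on its exon 2. In the deletion libraries the RPL14A ratio was 16.8 and 21.0, below the 21.9 and 32.8 of wild type. That of RPL14B was 65.2 and 55.6, overlapping the 59.6 and 78.2 of wild type.

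**Figure D1:**
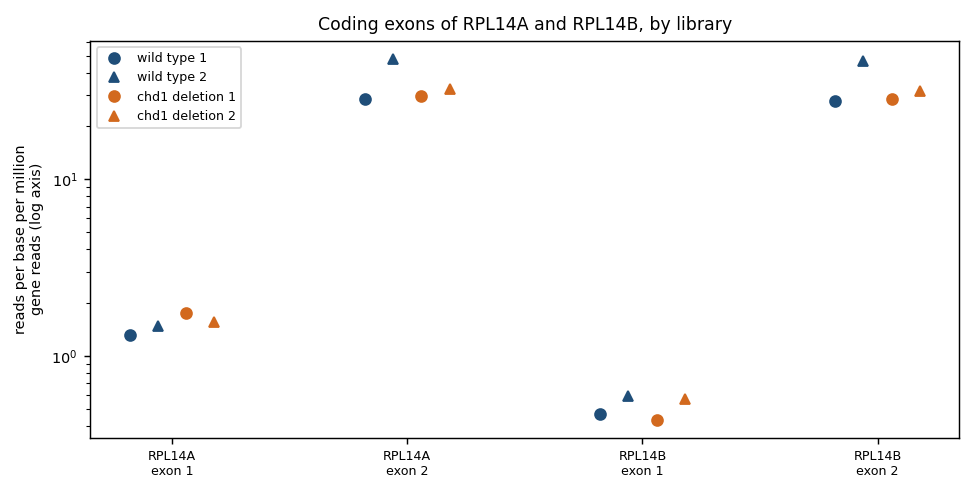
Reads per base and per 1e6 gene reads (log axis) over the coding exons of RPL14A and RPL14B, 1 point per library. In both genes and all 4 libraries exon 2 lies above exon 1, with the wider gap in RPL14B.

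Without CHD1, 9 of the 81 large-subunit genes fell, 0 rose and 72 did not pass the test (edgeR's quasi-likelihood test over all genes, Benjamini-Hochberg adjusted p under 0.05). That is 11.1% of the members, where 3.06% of the 5488 genes tested fell and 1.68% rose. The 9 were RPL22B, RPL33A, RPP0, RPL42B, RPL4A, RPL7B, RPL17A, RPL4B and RPL7A, and their log2 fold changes lay between -0.49 and -0.36. All 81 members passed the low-count filter. At an unadjusted p under 0.05, 26 members were lower and 1 higher, and over all genes 11.0% were lower and 8.53% higher. DESeq2 gave an adjusted p to 79 members and to 1078 genes in all. It called 9 of these members lower (11.4%) and 0 higher, and 13.3% of the 1078 genes lower and 2.13% higher, so in that smaller set the share of members called was not above the background.

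The shift was shallow and wide. The median log2 fold change of the members was -0.13, against 0.004 over all genes tested, and 64 members had a value below 0 and 17 above. With total gene counts in place of TMM the median of all genes moved to 0.11 and that of the members to -0.03, so the members stayed 0.13 below, and 46 were below 0. Both deletion libraries lay below both wild-type libraries in CPM for 46 members and above them for 8. Over all genes tested these patterns made up 24.4% and 24.9%. When wild-type replicate 1 was left out, the members' median was -0.08 with 54 below 0, and when wild-type replicate 2 was, it was -0.17 with 70 below 0. Over the genes to which DESeq2 gave an adjusted p, the median was -0.11 for all and -0.14 for the members. Relative to each gene's mean over the libraries, the members' median log2 CPM was 0.12 and 0.01 in wild-type cells and -0.06 and -0.08 without CHD1, so wild-type replicate 1 stood higher than replicate 2.

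Summed, the members took 13.5 and 13.6% of the TMM-scaled reads in wild-type cells and 11.8 and 11.8% without CHD1. Of the unscaled gene reads they took 12.7 and 13.4% in wild-type cells and 12.3 and 12.2% without CHD1, a narrower gap. The size of the drop in share thus depended on the scaling. RPL14A and RPL14B, whose counts may not be independent, alone carried a sizeable part of the TMM-scaled sum. Without them the TMM-scaled shares were 11.7 and 10.8% in wild-type cells and 10.1 and 9.98% without CHD1. Genes that overlap ribosomal RNA genes held 9.67 and 7.75% of the gene reads in wild-type cells and 10.5 and 11.6% without CHD1. With these 7 genes left out before scaling, the same 9 members were lower and the median was again -0.13.

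The number of members past the test differed with the libraries used. Without deletion replicate 1, 0 were called lower or higher, where 1.27% and 1.14% of all genes were, and with deletion replicate 2 left out, only RPL22B was lower and 0 were higher, where 1.63% and 1.05% of all genes were. Without wild-type replicate 1, 15 members (18.5%) were lower and 3 (3.7%) higher, where 6.57% and 3.84% of all genes were. When wild-type replicate 2 was the one left out, 19 members (23.5%) were lower and 0 higher, where 4.12% and 2.38% of all genes were. With total gene counts RPL33A alone was lower and 0 were higher, where 1.18% and 3.21% of all genes were.

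**Figure D2:**
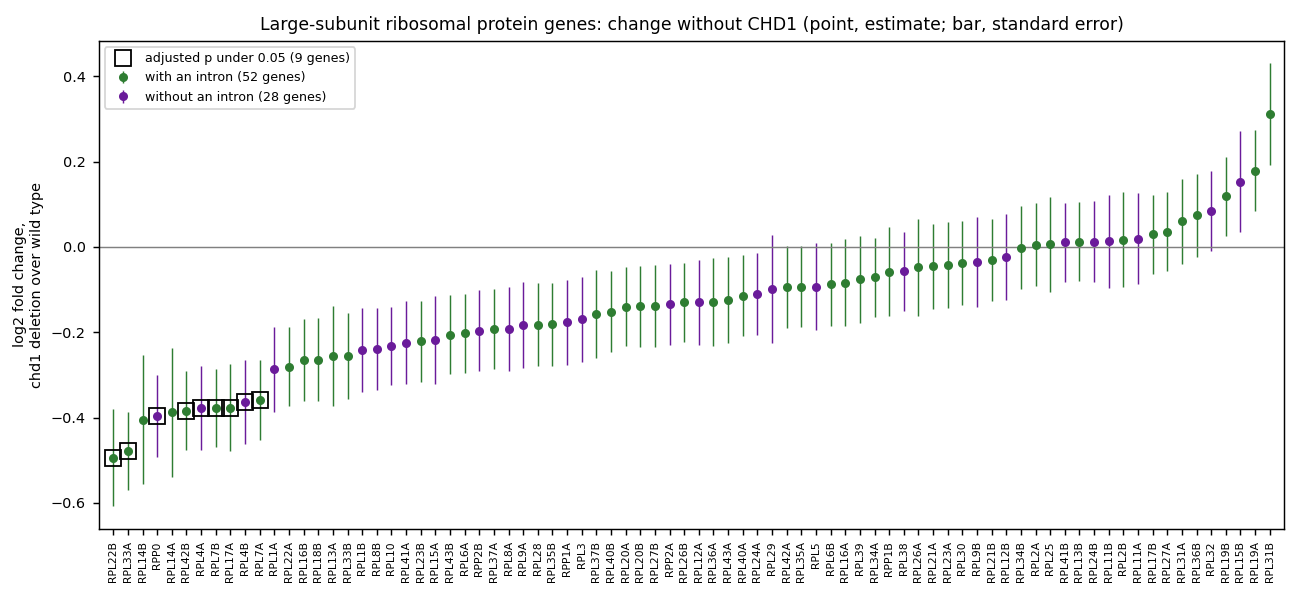
Log2 fold change (deletion over wild type) of 80 of the 81 members, sorted, with bars of 1 standard error; colour marks genes with and without an intron and squares the 9 genes past the test. Most points lie below 0, from -0.49 for RPL22B to 0.31 for RPL31B; with total gene counts 46 of the 81 lie below 0.

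In the exit tunnel and its mouth, 3 of 12 genes fell, where 11.1% of all members and 3.06% of all genes tested did. The role groups here and below are small, and none was tested as a set. RPL4A and RPL4B encode the protein whose loop narrows the tunnel. RPL4A (YBR031W, chromosome II, 300166 to 301254, plus strand) was at 3423 and 3927 CPM in the wild-type libraries, against 2781 and 2878 CPM in the deletion libraries, or -0.38 ± 0.10 on the log2 scale (adjusted p = 0.0330). RPL4B (YDR012W, chromosome IV, 471853 to 472941, plus strand) was at 2760.2 and 3183 CPM in wild-type cells, against 2282 and 2338 CPM without CHD1, a change of -0.36 ± 0.10 (adjusted p = 0.0387). The copies share 98.9% of their coding bases and moved side by side, with non-overlapping genotypes in both. They also share 72.7% of their 50-base coding windows. How reads that match both copies were treated is not given in the sources used here, so their counts may not be independent. RPL17A (YKL180W, chromosome XI, 109269 to 110129, plus strand), whose protein lines the same tunnel, was at 689 and 802 CPM in wild-type cells, against 596 and 553 CPM without CHD1 (-0.38 ± 0.10, adjusted p = 0.0375), and it did not pass without wild-type replicate 2. The other 9 genes of the group, those of the exit proteins RPL25, RPL26, RPL31, RPL35 and RPL39 and RPL17B, did not pass, and the group's median was -0.08.

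The P-stalk, a flexible arm that calls in elongation factors, had 1 of 7 genes lower. RPP0 (YLR340W, chromosome XII, 805887 to 806825, plus strand) encodes the protein that anchors the stalk to the subunit. Its level was 3021 and 2878 CPM in the wild-type libraries, against 2343 and 2138 CPM in the deletion libraries, or -0.40 ± 0.10 on the log2 scale (adjusted p = 0.0223), and the genotypes did not overlap. The acidic proteins that dimerise on it are encoded by RPP1A, RPP1B, RPP2A and RPP2B, with changes of -0.18, -0.06, -0.13 and -0.20, none past the test. RPP1B was at 533 and 462 CPM in wild-type cells, against 501 and 452 CPM without CHD1, with overlapping genotypes, and its value turned to 0.05 with total gene counts. RPL12A and RPL12B, of the stalk base, had values of -0.13 and -0.02 and did not pass either, and the value of RPL12B turned to 0.08 with total gene counts.

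RPL42B, 1 of 3 genes at the E site and the cycloheximide site, fell. It encodes a protein in which substitutions give resistance to cycloheximide. RPL42B (YHR141C, chromosome VIII, 381990 to 382751, minus strand) was at 1765 and 1754 CPM in the wild-type libraries, against 1295 and 1402 CPM in the deletion libraries (-0.38 ± 0.09, adjusted p = 0.0230). Its paralog RPL42A was at 1156 and 1024 CPM in wild-type cells, against 1006 and 1035 CPM without CHD1, and its value of -0.09, which turned to 0.01 with total gene counts, did not pass. RPL28, the gene also known as CYH2, was at 1681 and 1471 CPM in wild-type cells, against 1364 and 1412 CPM without CHD1, and did not pass.

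RPL7A, RPL7B and RPL33A belonged to none of the role groups used here. RPL33A (YPL143W, chromosome XVI, 282122 to 282970, plus strand) had the smallest p of all members, at 1363 and 1370.1 CPM in the wild-type libraries, against 999.7 and 961 CPM in the deletion libraries (-0.48 ± 0.09, adjusted p = 0.00397). The wild-type libraries were almost equal and both deletion libraries were lower. RPL7A (YGL076C, chromosome VII, 364335 to 365996, minus strand) was at 1771 and 1761 CPM in wild-type cells, against 1434 and 1319 CPM without CHD1 (-0.36 ± 0.09, adjusted p = 0.0327). RPL7B (YPL198W, chromosome XVI, 173152 to 174702, plus strand) was at 1029 and 1033 CPM in wild-type cells, against 803 and 784 CPM without CHD1 (-0.38 ± 0.09, adjusted p = 0.0233). Each of the RPL7 genes holds 2 introns, and a snoRNA gene lies in an intron of each, SNR39 in RPL7A and SNR59 in RPL7B. Of the 41 members in no role group, 3 fell, with a median of -0.16.

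RPL22B, RPL22A and RPL30 encode proteins known to bind their own pre-mRNA and hold back its splicing. RPL22B (YFL034C-A, chromosome VI, 64243 to 64932, minus strand) had the lowest log2 fold change of all members, at 191 and 169 CPM in the wild-type libraries, against 120.1 and 136 CPM in the deletion libraries (-0.49 ± 0.11, adjusted p = 0.0167). RPL22A was at 889 and 903 CPM in wild-type cells, against 731 and 744 CPM without CHD1, which did not pass (-0.28, adjusted p = 0.0869), though both deletion libraries were lower. RPL30 was at 1642 and 1408 CPM in wild-type cells, against 1496 and 1471 CPM without CHD1, with overlapping genotypes, and its change of -0.04 turned to 0.07 with total gene counts.

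**Figure D3:**
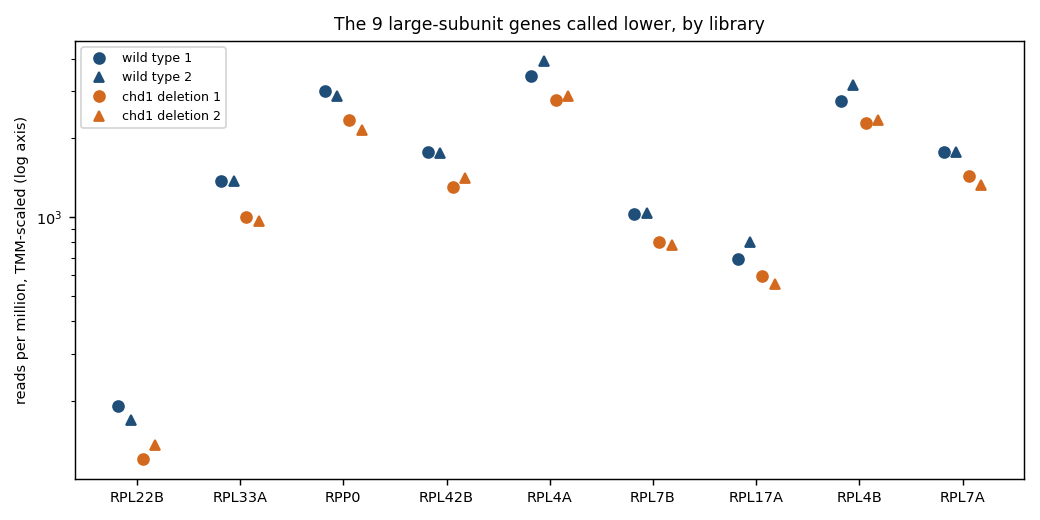
CPM (log axis) of the 9 members that fell, 1 point per library. In each gene both deletion libraries lie below both wild-type libraries.

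RPL14B and RPL14A had changes as low as those called but did not pass. RPL14B was at 8543 and 13667 CPM in wild-type cells, against 7893 and 8889 CPM without CHD1 (-0.40 ± 0.15, adjusted p = 0.136), and RPL14A at 9092 and 14493 CPM in wild-type cells, against 8515 and 9513 CPM without CHD1 (-0.39 ± 0.15, adjusted p = 0.151). In both genes the wild-type libraries lay further apart than the genotypes did. The copies share 42.1% of their 50-base coding windows, so these changes may not be independent.

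The largest value above 0 belonged to RPL31B, at 108 and 89.9 CPM in the wild-type libraries, against 119 and 125 CPM in the deletion libraries (0.31 ± 0.12, adjusted p = 0.147). It did not pass, though both deletion libraries were higher. RPL19A and RPL19B, which encode a protein that reaches across to the small subunit, had values of 0.18 and 0.12, RPL15B one of 0.15 and RPL32 one of 0.08, none past the test. RPL19A was at 1638 and 1459 CPM in wild-type cells, against 1721 and 1782 CPM without CHD1. None of the 6 genes of the bridges to the small subunit passed, nor any of the 4 at the peptidyl transferase centre, of the 3 of the 5S ribonucleoprotein or of the 2 ubiquitin fusions, RPL40A and RPL40B. The medians of these groups were 0.01, -0.08, 0.01 and -0.13.

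Members with and without an intron were counted apart. Of 53 members with an intron 6 fell (11.3%), with a median of -0.13. In 29 of them (54.7%) both deletion libraries were below both wild-type libraries. Of 28 members without an intron 3 fell (10.7%), with a median of -0.15 and 17 below (60.7%). Over all genes tested 3.06% fell, 1.68% rose and 24.4% were below in this way. Among the 177 other tested genes with an intron 4 fell, 2 rose and 33 (18.6%) were below, and their median was 0.01. The small-subunit protein genes, 56 in all, had 3 lower, 0 higher and 28 (50%) below. Their median was -0.13, the same as that of the members. Without wild-type replicate 2 the medians were -0.15 with an intron and -0.21 without an intron, and without wild-type replicate 1 both were -0.08. Without deletion replicate 1 they were -0.14 and -0.16, and without deletion replicate 2 they were -0.13 and -0.15. No test of the difference between these classes was made.

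The letters of a Rap1 binding sequence were found ahead of many of these genes. They were ACCCNNACA, searched on both strands in the 500 bases before and 50 bases after the annotated start codon, and were present for 36 of 81 members (44.4%). The same letters were in 5.82% of the 5791 windows read over all genes and in 32.1% of those of small-subunit genes. The match lay 162 to 489 bases ahead of the start codon, with a median of 311.5. Of the 36 members with a match 4 fell, and of the 45 without it 5 fell, both with a median log2 fold change of -0.13. Of all genes tested 3.06% fell. The Abf1 motif, searched the same way, was in 2 members (2.47%) and in 8.44% of all windows. The window was set after the matches in a shorter one had been seen, and a match describes letters, not a bound site. The stretches around the match in the 4 genes that fell and hold it are given here from the RefSeq R64 assembly (sacCer3), 5′ to 3′ on the strand of the gene, with the match in capitals.
RPL22B upstream window (chrVI:65139-65207, minus strand): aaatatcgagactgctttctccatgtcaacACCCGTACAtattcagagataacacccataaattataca
RPL33A upstream window (chrXVI:281738-281806, plus strand): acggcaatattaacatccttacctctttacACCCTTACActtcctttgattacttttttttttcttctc
RPL42B upstream window (chrVIII:383073-383141, minus strand): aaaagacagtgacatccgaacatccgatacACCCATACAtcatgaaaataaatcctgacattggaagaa
RPL7A upstream window (chrVII:366209-366277, minus strand): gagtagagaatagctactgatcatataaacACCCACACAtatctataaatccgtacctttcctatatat

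The members form 35 pairs of A and B copies, with 11 genes left single. Per length, wild-type cells held more of the A copy in 18 pairs and more of the B copy in 17. The copies were within 1.5-fold of each other in 14 pairs and at least 2-fold apart in 13. The most equal were RPL1, RPL11 and RPL20, at 1.01-, 1.03- and 1.10-fold, and RPL15 and RPL22, at 19.4- and 5.75-fold, were among the most unequal, with the A copy higher in both. Coding identity ranged from 68.9 to 99.4%, with a median of 93.2%. How reads that match both copies were treated is not given in the sources used here. The 9 pairs that share at least 25% of their 50-base coding windows had a median fold of 1.32 (1.01 to 2.99), and the 10 pairs that share none one of 2.74 (1.30 to 5.75).

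The balance of the copies was tested between genotypes, and 4 of 35 pairs passed. The test was edgeR's interaction of copy and genotype with the library as a block, over all 61 A/B pairs of the table, of which 10 (16.4%) passed. Ratios here are of read counts. In RPL42 the ratio was 0.655 and 0.584 in wild-type cells and 0.776 and 0.738 without CHD1, a log2 change of 0.30 ± 0.07 (adjusted p = 0.00148). In RPL17 it was 1.21 and 1.39 in wild-type cells and 1.02 and 0.940 without CHD1 (-0.40 ± 0.10, adjusted p = 0.00232). RPL17A had more reads than RPL17B in both wild-type libraries, and the libraries without CHD1 stood just above and just below 1. RPL17B itself was at 569 and 579 CPM in wild-type cells, against 584 and 589 CPM without CHD1 (0.03 ± 0.09, adjusted p = 0.908).

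The other pairs past the test were RPL15 and RPL41. RPL15 had ratios of 22.9 and 19.6 in wild-type cells and 17.2 and 15.7 without CHD1 (-0.35 ± 0.13, adjusted p = 0.0423). RPL41 had ratios of 0.709 and 0.682 in wild-type cells and 0.612 and 0.570 without CHD1 (-0.23 ± 0.08, adjusted p = 0.0301). RPL41 encodes the shortest protein of the subunit, 78 coding bases with the stop codon. The coding sequences of its copies are printed to show how alike they are. The given gene lengths are 310 (RPL41A) and 297 (RPL41B) bases, and the sequence outside the coding bases was not compared. The coding sequences differ by the single substitution C9T, the RPL41A base first and positions counted from 1 at the A of the start codon. The base is in capitals, on the strand of the gene (RefSeq R64 assembly).
RPL41A coding sequence (chrIV:130407-130484, minus strand): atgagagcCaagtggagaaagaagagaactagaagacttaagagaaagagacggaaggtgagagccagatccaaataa
RPL41B coding sequence (chrIV:221724-221801, minus strand): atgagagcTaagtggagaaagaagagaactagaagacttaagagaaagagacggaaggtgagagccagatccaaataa

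None of these 4 calls held throughout. With limma on the log2 ratio and no replicate block, with intron reads subtracted, or without any 1 of the libraries, 0 member pairs passed; the change in RPL42 then lay between 0.21 and 0.38 and that in RPL17 between -0.49 and -0.30. The RPL15 and RPL41 genes have no annotated intron, so subtracting intron reads left their own counts unchanged. The fit and the adjustment over the other pairs still changed. Among the pairs next in size that did not pass, RPL13 had a log2 difference of -0.27 (adjusted p = 0.0530), RPL22 one of 0.21 (adjusted p = 0.292) and RPL23 one of 0.18 (adjusted p = 0.256). When 1 library was left out, the RPL13 difference ran from -0.43 (no wild-type replicate 1) to -0.07 (no wild-type replicate 2), and that of RPL22 from 0.12 to 0.32 in the same fits. RPL33, in which the A copy fell and the B copy did not pass, had a difference of -0.22 that did not pass (adjusted p = 0.127). RPL4 and RPL7, in which both copies fell, had differences of -0.01 and 0.02. The copies share 72.7% (RPL4) and 56.9% (RPL7) of their 50-base coding windows, so the counts within each pair may not be independent.

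**Figure D4:**
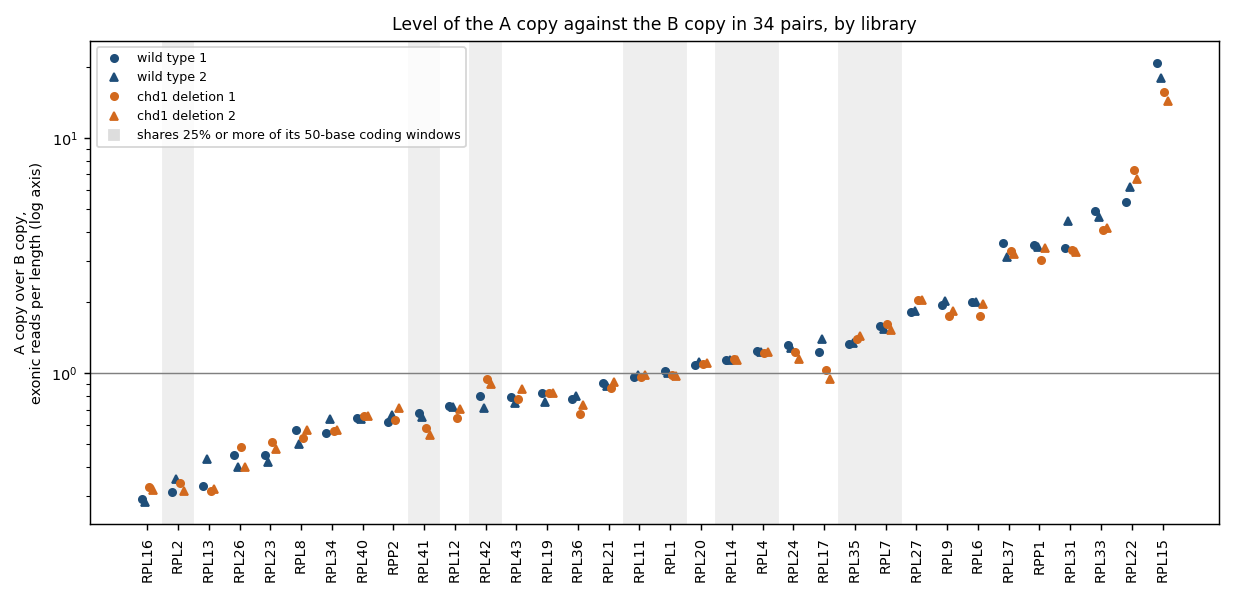
A copy over B copy (exonic reads per length, log axis) in 34 pairs, 1 point per library, with grey bands for pairs that share at least 25% of their 50-base coding windows. RPL15 and RPL22 stand furthest above 1 of the pairs drawn, and in RPL11 and RPL20 the points of the genotypes overlap.

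Of the 55 annotated introns of the members, in 53 genes and 147 to 561 bases long, 44 start with GTATGT, 52 hold the branch sequence TACTAAC and all 55 end in AG. The 40 introns with enough reads were tested for a change relative to the rest of their gene, within a fit over 80 introns of all genes. In that fit 1 intron (1.25%) fell and 0 rose. The intron that fell was that of RPL20B, a protein gene with a near-equal paralog. It held 30 and 41 reads in wild-type cells and 21 and 17 without CHD1. Per base this was 1.04 and 1.14% of the rest of the gene in wild-type cells and 0.391 and 0.518% without CHD1, a log2 change of -1.30 ± 0.32 (adjusted p = 0.00556).

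The RPL20B intron did not pass with limma (adjusted p = 0.123) or without wild-type replicate 2 (0.249), deletion replicate 1 (0.697) or deletion replicate 2 (0.122). The RPL20A intron, at 0.485 and 0.333% in wild-type cells and 0.274 and 0.247% without CHD1, did not pass. The ends of the RPL20 introns are shown because the copies differ in the donor, with GTGAGT in RPL20A. Capitals mark the first 6 bases, the branch sequence and the final AG (RefSeq R64 assembly, strand of the gene).
RPL20A first intron bases (chrXIII:754180-754219, minus strand): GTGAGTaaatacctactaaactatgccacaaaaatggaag
RPL20A last intron bases (chrXIII:753743-753799, minus strand): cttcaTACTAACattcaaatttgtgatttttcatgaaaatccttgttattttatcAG
RPL20B first intron bases (chrXV:901154-901193, minus strand): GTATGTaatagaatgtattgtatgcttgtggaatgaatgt
RPL20B last intron bases (chrXV:900768-900815, minus strand): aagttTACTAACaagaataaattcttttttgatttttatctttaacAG

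Known cases of regulated or slow splicing are the introns of RPL22B, RPL28 and RPL30. RPL22B intron reads per base were 20.8 and 19.7% of the rest of the gene in wild-type cells and 30.5 and 31.2% without CHD1. The deletion libraries were higher, but the log2 difference of 0.61 did not pass (adjusted p = 0.218). With a minimum count of 30, which left 30 introns in the fit, it passed (0.61, adjusted p = 0.0248), and over the other alternatives its adjusted p lay between 0.173 and 0.757. The RPL22A intron stood at 2.23 and 1.84% in wild-type cells and 3.92 and 2.85% without CHD1, again not past the test (0.76, adjusted p = 0.163). Both RPL22 introns depart from the usual donor, as the printed ends show with the same capitals.
RPL22A first intron bases (chrXII:263206-263245, plus strand): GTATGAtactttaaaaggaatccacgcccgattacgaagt
RPL22A last intron bases (chrXII:263529-263594, plus strand): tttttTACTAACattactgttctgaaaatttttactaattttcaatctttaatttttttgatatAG
RPL22B first intron bases (chrVI:64881-64920, minus strand): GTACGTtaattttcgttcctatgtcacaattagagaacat
RPL22B last intron bases (chrVI:64600-64626, minus strand): gggatTACTAACataaaactgtaacAG

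The RPL28 intron, whose pre-mRNA is a known substrate of nonsense-mediated decay, was at 16.3 and 15.6% in wild-type cells and 13.7 and 14.3% without CHD1, without passing. Its donor is the usual one.
RPL28 first intron bases (chrVII:311016-311055, plus strand): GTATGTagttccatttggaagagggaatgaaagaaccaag
RPL28 last intron bases (chrVII:311473-311526, plus strand): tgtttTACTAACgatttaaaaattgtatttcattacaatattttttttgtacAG

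The RPL30 intron stood at 13.2 and 10.5% in wild-type cells and 11.2 and 12.3% without CHD1, with overlapping genotypes. It is printed whole because the Rpl30 protein is known to bind the pre-mRNA beside the donor, which here reads GTCAGT. Capitals mark the donor, the branch sequence and the final AG.
RPL30 intron (chrVII:439094-439323, plus strand): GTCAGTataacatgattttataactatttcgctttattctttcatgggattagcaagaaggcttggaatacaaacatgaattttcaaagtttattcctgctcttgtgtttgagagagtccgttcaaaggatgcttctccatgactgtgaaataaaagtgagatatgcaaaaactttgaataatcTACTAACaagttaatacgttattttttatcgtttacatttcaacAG

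The RPL35B intron had the lowest log2 value (-1.51, adjusted p = 0.103), with 9 and 18 reads in wild-type cells and 6 and 6 without CHD1, and that of RPL13B had a value of -0.72, neither past the test. That of RPL33B had a value of 0.64, likewise not past it. The median log2 change was -0.19 over the 40 member introns and -0.19 over all 80.

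**Figure D5:**
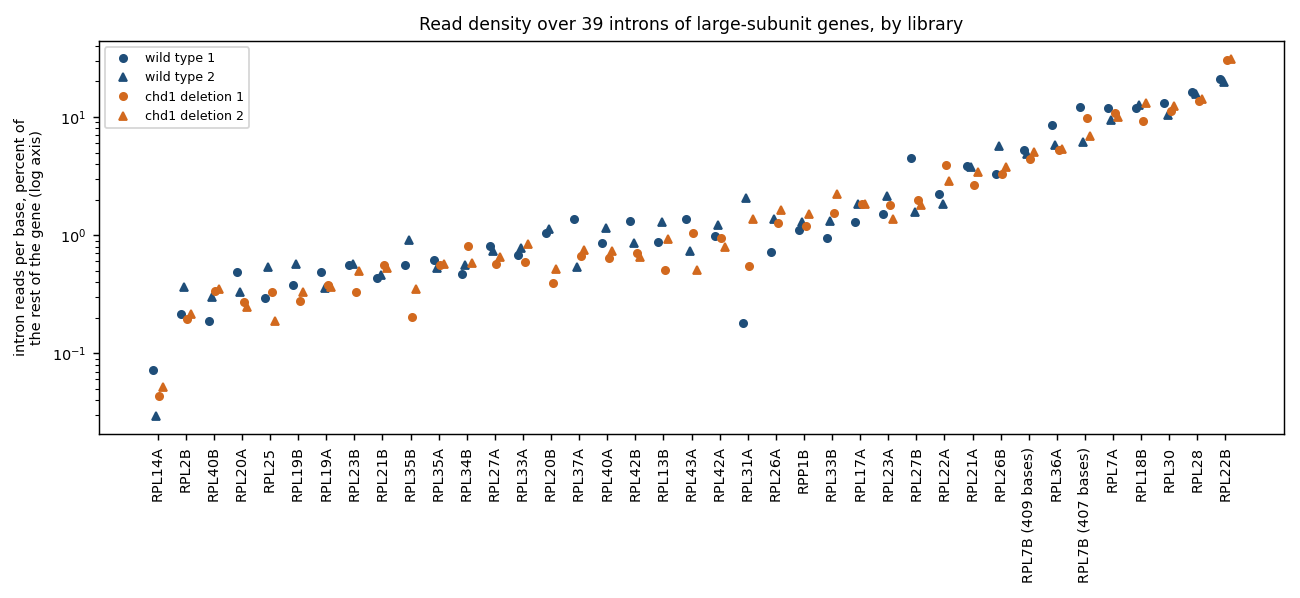
Intron reads per base as a percent of the rest of the gene (log axis) for 39 of the 40 tested introns, 1 point per library. The introns run from RPL14A at the low end to RPL28 and RPL22B at the high end, and the RPL20B points of the deletion lie below those of wild type.

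Genes that act on the members were looked at from lists. Of 16 genes for regulators of ribosomal protein genes, such as RAP1, FHL1 and IFH1, 1 fell, 0 rose and 15 did not pass, with a median of 0.06. The gene that fell was SFP1, which encodes a zinc-finger activator of ribosomal protein genes. SFP1 was at 67.6 and 121 CPM in wild-type cells and 59.8 and 58.3 CPM without CHD1 (-0.71 ± 0.18, adjusted p = 0.0327). Wild-type replicate 2 alone was high, and without it the change was -0.18 (adjusted p = 0.613). Of 14 tested genes for chaperones and export factors of large-subunit proteins and 6 tested genes for their methyltransferases, 0 passed, with medians of 0.05 and 0.11.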

How the data were processed

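RNA-seq gene and intron tables were used, 1 of each for 4 libraries, grouped by the genotype in the labels. The gene counts and intron counts are whole numbers as deposited; a second deposited column, a length-scaled signal that the file headers call normalized, entered no test. CASAVA 1.8, TopHat and sacCer3 are named in the submitters' processing notes. Which program counted reads, whether it used strand, and what became of reads with several positions is not given in the sources used here. Libraries held 2145684 and 2824770 (wild type) and 4117998 and 2597514 (deletion) gene reads. Counts of replicates differed by more than sampling noise (chi-square per degree of freedom 6.08 in wild type, 2.46 in the deletion).

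Genes were tested with edgeR 4.0.16 in R 4.3.3 (quasi-likelihood, TMM, filterByExpr at a minimum count of 10, no term but genotype), with p-values adjusted over all genes by Benjamini-Hochberg and a threshold of 0.05. Pairs with at least 10 reads and introns were tested as interactions with library as a block. Tables were matched to the R64 annotation, where 5813 of 5816 identifiers were found; coordinates are 1-based. Gene lengths in the tables exceed coding plus intron length for all 81 members. DESeq2 1.42.0, limma 3.58.1, other scalings and filters, the replicate number as a block and leaving out each library were alternatives. Whether equal replicate numbers pair the libraries is not stated in the labels. The deviations of same-numbered libraries correlated at 0.01, which cannot settle it. Scripts were tested on simulated data.

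The members and gene lists were chosen with earlier results of these data known. The genes named are CHD1, members past the test, the 5 highest and 5 lowest changes and levels, the P-stalk genes, RPL22A, RPL22B and RPL30, the 3 most equal and unequal pairs, pairs and introns past the test or with the 3 largest changes in each direction, and listed genes past it. Of the lists, 2 chaperone genes and 1 methyltransferase gene were not matched, as was 1 of the background markers. RPL25, RPL28, RPL33B, RPL42A and others beside these are given as context, chosen with their values seen. A member that these rules would name is counted but not reported here by name.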

Additional observations from a re-analysis of the deposited data

How the results depend on the processing

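The 9 calls were kept with RLE factors, TMM without ribosomal protein genes, no low-count filter, a minimum count of 50, DESeq2, limma-voom, the replicate block and without the genes over ribosomal RNA, an alternative chosen after seeing the data. The replicate block added RPL14B, and over all genes called 259 lower and 165 higher. The labels do not state that the numbers pair the libraries. With total gene counts 1 member was lower, with an intron (0 without one), the medians were -0.0251 (members), -0.0239 (with an intron) and -0.0467 (without), and over all genes 65 were lower and 176 higher. DESeq2 called 23 genes higher among the 1078 it gave an adjusted p.

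Leaving out 1 library at a time gave 0 to 19 members lower and 0 to 3 higher, 0 to 10 lower and 0 to 3 higher with an intron, 0 to 10 lower without one, and 70 to 364 genes lower and 58 to 213 higher over all. In these fits the lone library of a genotype is assumed to vary like the other genotype's pair. Over the pairs, 0 of 61 and 0 of 35 were called with limma at prior counts of 0.5 and 5 and with intron reads subtracted, 4 and 1 with limma and the replicate block, and 0 to 1 and 0 without 1 library. Over the introns, a minimum count of 30 called 2 lower and 1 higher, of members RPL20B lower and 1 higher, RPL22B; limma called 0 lower, with the replicate block 4 lower (2 members) and 1 higher; without 1 library 0 to 2 were lower (members 0 to 1) and 0 to 1 higher.

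With total gene counts 18 members turned direction; of the genes named by rule these included RPL29 (0.0077), RPL30 (0.0684) and RPP1B (0.0489). Without 1 library the value of RPL29 ran from -0.277 to 0.0801, that of RPL30 from -0.137 to 0.0798 and that of RPP1B from -0.149 to 0.0532; they were positive without wild-type replicate 1, RPL29 (0.0408) and RPP1B (0.011) also without deletion replicate 2. The ratio changes ran from -0.0084 to 0.0195 in RPL11 and from -0.0183 to 0.0155 in RPL20. The cause was not tested. Intron values rest on few reads, down to 6 in a library for RPL35B.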

Other observations

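The per-base imbalance between coding exons was not limited to the RPL14 genes. In RPP1B the ratio of the last exon to the first was 4.82 and 3.67 in wild-type cells and 4.51 and 4.78 without CHD1. In RPL17B the values were 1.87 and 2.0 in wild-type cells and 1.81 and 1.84 without CHD1, against 1.28, 0.954, 1.17 and 1.22 in its paralog RPL17A. RPL7A went the other way, with the third coding exon at 0.200 and 0.211 of the second in wild-type cells and 0.195 and 0.204 without CHD1.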
